A study of Homo sapiens with 4 samples.

Results

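Transcripts of receptor tyrosine kinases of the ERBB, FGF receptor, HGF receptor and IGF receptor families were followed in LNCaP, a human prostate cancer cell line, without and with overexpression of the ETS transcription factor ETV5. The genes were chosen by name, and no measured value enters the rule, though earlier results of these data were known when it was made: EGFR, ERBB2, ERBB3, ERBB4, FGFR1, FGFR2, FGFR3, FGFR4, MET and IGF1R. Of these 10 genes, 9 were found among the 17902 genes of the deposited table, and all 9 passed the filter on low counts. ERBB4 has no row in that table, which lists genes with at least 1 read in every library, and was not analysed here. RNA was sequenced from 2 Control libraries, labelled WT, and from 2 libraries labelled as overexpressing ETV5 (ETV5_OE). The labels do not say how ETV5 was introduced, whether the cells were a pool or 1 clone, how long it was expressed, or whether the controls carried an empty vector. Whether the replicates are separate cultures is not stated either, so p-values cover only how far these libraries differ, possibly for technical reasons.

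Receptor tyrosine kinases are single-pass membrane proteins that bind a growth factor outside the cell and phosphorylate themselves and adaptor proteins inside it. From the adaptors the signal runs through RAS and RAF to the kinase ERK and, in parallel, through PI3K to AKT. The PEA3 factors ETV1, ETV4 and ETV5 lie at the far end of this chain: their transcription is raised by FGF receptor and ERK signalling in many tissues, and ERK phosphorylates them. In prostate epithelium, the ERBB receptors respond to EGF-like ligands, FGF receptors to FGFs from the stroma, MET to HGF from the stroma, and IGF1R to IGF1 and IGF2.

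ETS factors bind DNA around a GGAA core (TTCC on the other strand), so the start sites of 3 abundant receptors are shown for reference. These are the 250 bases before an annotated start in RefSeq on GRCh38.p14, on the plus strand, with each GGAA or TTCC in capitals. For IGF1R the window is chr15:98648289-98648538, for ERBB2 chr17:39687844-39688093 and for EGFR chr7:55018767-55019016.
IGF1R: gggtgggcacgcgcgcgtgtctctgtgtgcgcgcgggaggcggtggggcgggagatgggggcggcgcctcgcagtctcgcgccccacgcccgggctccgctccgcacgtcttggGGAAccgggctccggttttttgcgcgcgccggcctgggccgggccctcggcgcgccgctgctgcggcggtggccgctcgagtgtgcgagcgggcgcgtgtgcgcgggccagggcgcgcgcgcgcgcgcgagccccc
ERBB2: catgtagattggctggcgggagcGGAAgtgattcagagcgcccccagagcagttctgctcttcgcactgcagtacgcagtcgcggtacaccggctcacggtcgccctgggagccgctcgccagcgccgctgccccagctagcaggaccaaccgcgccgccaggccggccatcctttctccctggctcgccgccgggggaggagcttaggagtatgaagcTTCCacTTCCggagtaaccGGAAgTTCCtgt
EGFR: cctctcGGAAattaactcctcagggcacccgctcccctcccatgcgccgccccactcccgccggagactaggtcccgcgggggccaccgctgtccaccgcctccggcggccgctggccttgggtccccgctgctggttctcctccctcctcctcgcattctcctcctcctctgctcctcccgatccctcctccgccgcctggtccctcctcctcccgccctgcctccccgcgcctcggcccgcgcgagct

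The IGF1R window holds 1 GGAA core, the EGFR window 1 and the ERBB2 window 5, counted on both strands. A GGAA core is found in 92.7% of the 35116 promoter windows of the same length and the median window holds 3. The longer string CCGGAA is found in 14.5% of windows and CCGGAAGT, which contains it, in 3.42%. Of the 7 receptor genes with a window in the RefSeq table, which have 13 windows between them, ERBB2 was the 1 gene with a CCGGAA match, and both of its 2 matches were the full CCGGAAGT. The ERBB2 window lies at the most upstream start of the gene, most of it inside the opposite gene PGAP3, which ends at base 39688057, and 2 of 11 coding transcripts in GENCODE 29 begin within 500 bases of it. For IGF1R, 3 of 6 coding transcripts begin within 500 bases of its window, and for EGFR 6 of 8. A match is a string of letters and does not show that a factor was bound there.

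The libraries held between 20639543 and 30227070 counts. ETV5 itself had 22 and 27 counts in the controls, replicate 1 first as in every pair of values here, and 534 and 522 with overexpression, as the labels say. ETV1, the PEA3 factor that LNCaP expresses highly, was lower in both ETV5_OE libraries (26.0 and 31.6 CPM, counts scaled to library size) than in the controls (371 and 264 CPM; log2 fold change -3.46, edgeR adjusted p = 0.0015), so the comparison sets cells with more ETV5 and less ETV1 against control cells. Of 20 stromal, endothelial and immune markers 11 were in the table, and their summed level was 787 and 859 CPM in the controls and 1240 and 1030 CPM in the ETV5_OE libraries. Most of that is FN1 (fibronectin), at 744 and 826 CPM against 1090 and 987 CPM, and without it the other 10 summed to 43.6 and 33.6 CPM against 146 and 39.0 CPM. The remaining 9, among them DCN, LUM, PECAM1 and PTPRC, were not analysed here. The fibroblast collagen COL1A2 reached 41.4 CPM in ETV5_OE replicate 1. Its level was 0.0835 CPM in the other ETV5_OE library, with 0.326 and 1.72 CPM for the controls. COL1A1, COL3A1, COL6A3, VIM, SPARC and PDGFRB were also highest in ETV5_OE replicate 1. COL6A3 was at 19.0 CPM there and 0.209 CPM in ETV5_OE replicate 2, and VIM at 16.1 and 1.75 CPM. ACTA2 and VWF were highest in Control replicate 1, and CD68 in ETV5_OE replicate 2. Of the 10 markers other than FN1, both ETV5_OE libraries were above both controls in 4 and below in 0. The other 6 overlapped, COL1A2 among them. Of all genes tested, 18.8% were above in this way. CD68, another of the list, stood at 5.71 and 8.45 CPM in the controls against 9.10 and 16.9 CPM. Of 14 luminal prostate markers 13 were in the table, and ACP3 was not analysed here. Their summed level was 8690 and 9210 CPM in the controls and 6400 and 6980 CPM in the ETV5_OE libraries. In bulk RNA, fewer cells of a type and less RNA per cell cannot be told apart.

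Per transcript length, the ERBB family dominated the receptors of these cells. The deposited FPKM scale allows for length and library size, though not by a fixed length per gene. On it, the 9 receptors summed to 98.0 ± 9.43 in Control and 89.2 ± 7.32 in ETV5_OE (SD, n = 2). EGFR, ERBB2 and ERBB3 made up 84.2% and 85.5% of that sum in Control, against 89.5% and 89.1% in ETV5_OE. The 4 FGF receptors together made up between 4.03% and 5.91% of the sum over the 9 receptors in the 4 libraries. MET made up between 0.374% and 0.760%. IGF1R took 9.84% and 9.90% in the controls and 4.22% and 5.03% in the ETV5_OE libraries, and these groups did not overlap. With 2 libraries a group, an exact two-sided permutation test cannot give a p below 0.333, so no test of these shares was made.

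**Figure D1:**
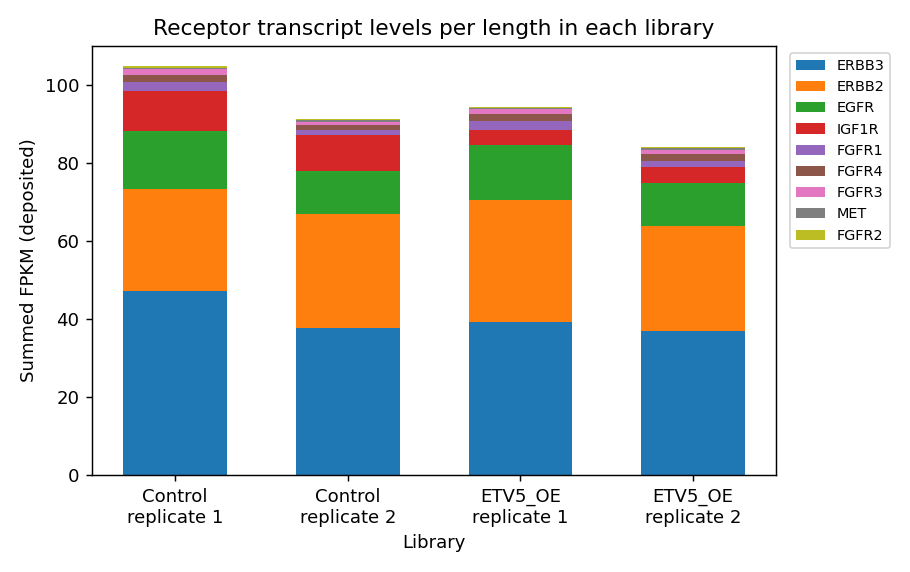
Stacked deposited FPKM of the 9 receptors (vertical axis) in each of the 4 libraries (horizontal axis). ERBB3, ERBB2 and EGFR fill most of every bar, and the IGF1R segment is 10.3 and 9.04 FPKM in the controls against 3.99 and 4.22 FPKM in the ETV5_OE libraries.

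In the control libraries the order of mean FPKM was ERBB3 (42.5), ERBB2 (27.7), EGFR (12.9), IGF1R (9.67), FGFR1 (1.81), FGFR4 (1.46), FGFR3 (1.14), MET (0.477) and FGFR2 (0.324). The libraries of neighbours in that order overlapped for FGFR1 with FGFR4 and for FGFR4 with FGFR3, and did not overlap for the other neighbours. In the ETV5_OE libraries the order was the same except that FGFR4 (1.94) stood above FGFR1 (1.78), and the libraries of that pair overlapped. By their median rank over the 4 libraries among all 17902 genes, ERBB3 stood at 1611 and ERBB2 at 2300, while FGFR2 stood at 15505.

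Across the ETV5_OE against Control comparison, 1 of the 9 receptors changed and 8 did not pass the test. IGF1R was lower, and none was called higher. The test was edgeR's quasi-likelihood test with Benjamini-Hochberg adjustment over all 16194 genes tested. It called 65 genes at an adjusted p under 0.05, which is 0.401% of them, with 0.148% lower and 0.253% higher. At an unadjusted p under 0.05 stood 7.14% of genes, and 1 of the 9 receptors, again IGF1R. Of the receptors, 2 had groups that did not overlap in CPM, IGF1R (lower) and FGFR4 (higher), against 37.6% of all genes tested. The median log2 fold change of the 9 receptors was 0.03 and that of all genes 0.00. The median size of change, disregarding direction, was 0.14 for the receptors and 0.19 for all genes.

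**Figure D2:**
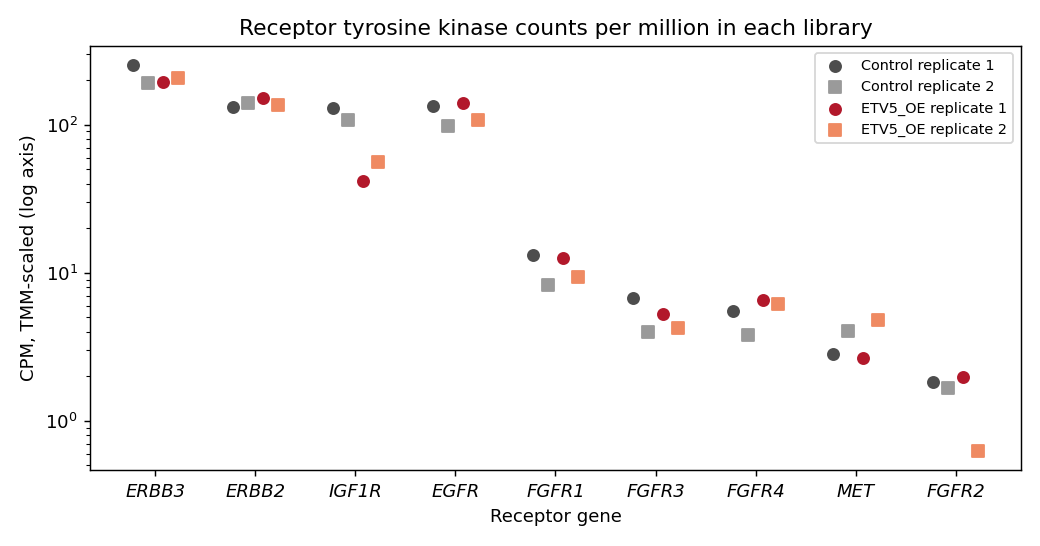
CPM of each receptor gene (horizontal axis) in each library on a log axis, with circles for replicate 1, squares for replicate 2, grey for Control and red or orange for ETV5_OE. IGF1R stands apart, at 130 and 107 CPM in the controls and 41.7 and 55.7 CPM in the ETV5_OE libraries, and FGFR2 has a single low point at 0.626 CPM.

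IGF1R encodes the tyrosine kinase receptor for IGF1 and IGF2, which promotes survival and growth largely through the adaptors IRS1 and IRS2 and the kinase AKT. Its locus (gene ID 3480) spans bases 98648539 to 98964530 of chromosome 15 on GRCh38. Control libraries gave 3980 and 2237 counts, and ETV5_OE libraries 930 and 1334 counts. Scaled to library size these were 130 and 107 CPM against 41.7 and 55.7 CPM. Both ETV5_OE libraries were below both controls, by more than either pair differed within itself. Mean levels were 118 ± 16.3 CPM without and 48.7 ± 9.90 CPM with overexpression (SD, n = 2). IGF1R thus fell 2.43-fold (log2 fold change -1.28, SE 0.18, 95% interval -1.70 to -0.86, edgeR adjusted p = 0.0374). Among the 24 genes called lower it ranked 17th by size of fall, and 6 of the 24, itself included, had a control mean at least as high. The authors' deposited table lists a fold of -2.06 for it, at an unadjusted p of 0.0190. No annotated exon of another gene in GENCODE 29 shares bases with its exons.

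The call for IGF1R was lost in 8 of 16 alternative settings, while its direction held in all 16. With all libraries and edgeR, it was lost without robust estimation (adjusted p = 0.0902). Without ETV5_OE replicate 1 the log2 fold change was -1.09 (edgeR adjusted p = 0.501) and without ETV5_OE replicate 2 it was -1.51 (adjusted p = 0.258), settings in which no gene of the table was called. Without Control replicate 1 or 2 the call held, at -1.13 (adjusted p = 0.0294) and -1.41 (adjusted p = 0.0130). DESeq2, which called 1.38% of genes, gave -1.28 with adjusted p = 9.14e-06, limma-voom gave adjusted p = 0.0758, and limma on FPKM values gave adjusted p from 0.173 to 0.282. Of the 13 luminal markers, 9 were lower in both ETV5_OE libraries than in both controls, against 18.8% of all genes tested, KRT18 was higher in both, and KRT8, HOXB13 and FOLH1 overlapped. None of the 13 was called, and the part of these markers in the IGF1R result was not tested. IGF1R was at 55.7 CPM in ETV5_OE replicate 2, where COL1A2 was at 0.0835 CPM and CD68, at 16.9 CPM, was at its highest. In ETV5_OE replicate 1, where COL1A2 was at 41.4 CPM, IGF1R was at its lowest, 41.7 CPM. The part of stromal or immune RNA in the IGF1R result was not tested.

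**Figure D3:**
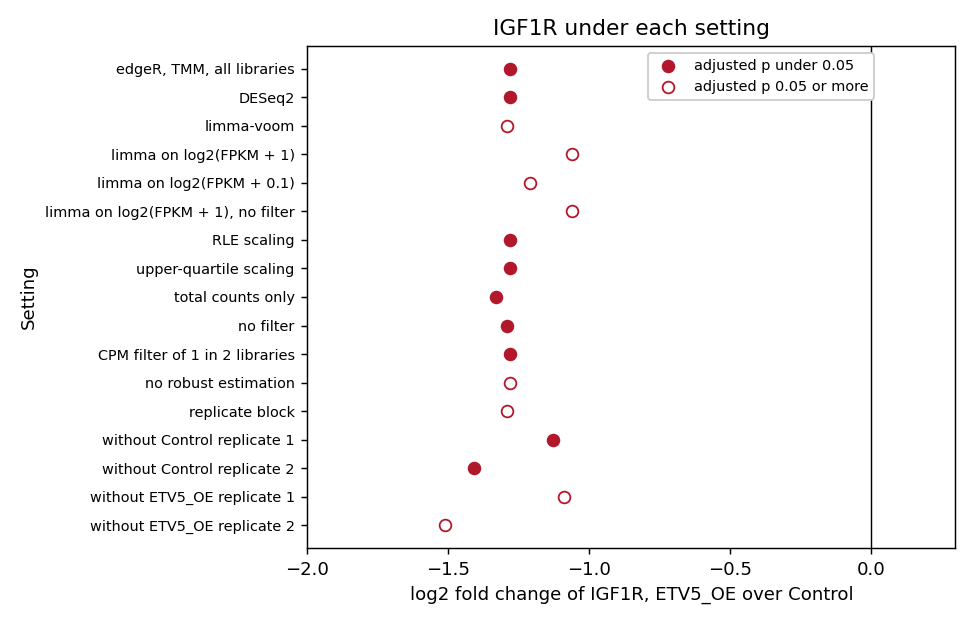
Log2 fold change of IGF1R in ETV5_OE over Control (horizontal axis) under each analysis setting (vertical axis), with filled points where the adjusted p was under 0.05. Every point lies between -1.51 and -1.06, and 9 of 17 points are filled, the edgeR fit on all libraries included.

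The ERBB receptors were the most abundant, and none of the 3 passed the test. ERBB3, a receptor with a weak kinase that binds neuregulins and signals to PI3K through its partners, stood at 252 and 190 CPM in Control against 193 and 207 CPM in ETV5_OE. The 2 controls differed from each other by more than the group means did. Its log2 fold change was -0.14 (SE 0.17, 95% interval -0.52 to 0.24, edgeR adjusted p = 0.934). ERBB2 (HER2), the partner without a known ligand of its own, stood at 132 and 141 CPM against 152 and 136 CPM. These groups overlapped, with a log2 fold change of 0.08 and a 95% interval of -0.24 to 0.39, the narrowest of the 9. ERBB2 shares 571 exon bases with MIEN1 and 194 with PGAP3 on the opposite strand, and whether counting used strand is not stated, so their reads may not be told apart. MIEN1 had 1102 and 1086 counts in the controls and 979 and 1213 in the ETV5_OE libraries, against at least 2964 for ERBB2 in every library. EGFR, the receptor for EGF, TGF-alpha and HB-EGF, stood at 134 and 97.4 CPM in the controls and 141 and 108 CPM in the ETV5_OE libraries. The libraries numbered 1 were the higher ones in both groups, and the group means, 116 ± 25.9 and 125 ± 23.6 CPM, lay closer together than either pair. Its log2 fold change was 0.11 (95% interval -0.36 to 0.58) on counts and -0.04 on log2(FPKM + 1), so its sign depended on the scale. For all 3 receptors the intervals leave out a change of 1 log2 unit in either direction.

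Within the ERBB family, the shares per length overlapped between the groups. ERBB3 made up 53.5% and 48.4% of the ERBB FPKM in the controls and 46.4% and 49.3% in the ETV5_OE libraries. ERBB2 made up 29.7% and 37.4% against 37.1% and 35.8%. EGFR made up 16.7% and 14.2% against 16.5% and 14.9%. The ratio of ERBB3 to ERBB2 was 1.80 and 1.30 in the controls and 1.25 and 1.38 in the ETV5_OE libraries. EGFR lies on chromosome 7 from 55019017 to 55211628, ERBB2 on chromosome 17 from 39688094 to 39728658, and ERBB3 on chromosome 12 from 56080108 to 56103505.

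**Figure D4:**
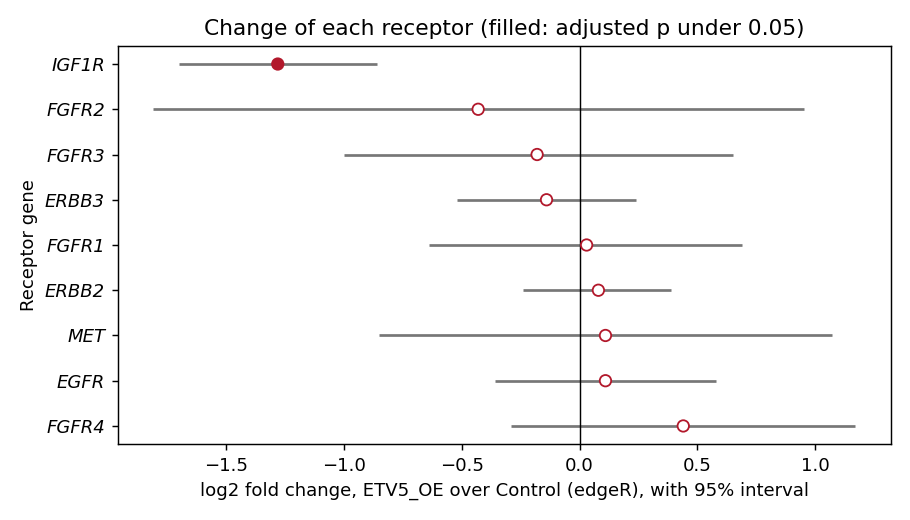
Log2 fold change of each receptor gene in ETV5_OE over Control (horizontal axis; edgeR) with its 95% interval as a line, filled where the adjusted p was under 0.05. The IGF1R interval, -1.70 to -0.86, lies wholly below 0, and the other 8 intervals include 0, the widest being that of FGFR2 from -1.81 to 0.95.

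The FGF receptors, which need heparan sulfate beside an FGF ligand, were low, and none of the 4 passed the test. FGFR1 stood at 13.2 and 8.26 CPM in the controls and 12.5 and 9.43 CPM in the ETV5_OE libraries. The higher library of each group was the one numbered 1, and the group means were 10.7 ± 3.48 and 10.9 ± 2.14 CPM (log2 fold change 0.03, 95% interval -0.64 to 0.69). FGFR1 shares 138 exon bases with LETM2 on the opposite strand, so, as for ERBB2, their reads may not be told apart. LETM2 had 70 and 47 counts in the controls and 96 and 105 in the ETV5_OE libraries, against 404 and 173, and 278 and 226, for FGFR1. FGFR4, which pairs with the coreceptor beta-Klotho in liver, stood at 5.54 and 3.77 CPM in the controls and 6.50 and 6.18 CPM in the ETV5_OE libraries. Both ETV5_OE libraries lay above both controls, by a margin smaller than the difference between the controls. Its log2 fold change was 0.44 (SE 0.32, 95% interval -0.29 to 1.17, edgeR adjusted p = 0.869), and it was positive in every alternative, from 0.19 to 0.75 with 1 library left out. FGFR3 stood at 6.72 and 3.96 CPM against 5.24 and 4.26 CPM, and both ETV5_OE values lay within the range of the controls (log2 fold change -0.18, SE 0.36).

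FGFR2, whose IIIb isoform is the FGF7 and FGF10 receptor of epithelium, was the lowest of the 9. It had 56 and 35 counts in the controls and 44 and 15 counts in the ETV5_OE libraries, that is 1.83 and 1.67 CPM against 1.97 and 0.626 CPM. The low library was ETV5_OE replicate 2, and ETV5_OE replicate 1 was the highest of the 4. The log2 fold change was -0.43 (SE 0.60) with all libraries and 0.17 without ETV5_OE replicate 2, so a direction for FGFR2 rested on 1 library. Gene counts do not separate its IIIb and IIIc isoforms. As a share of the FGF receptor FPKM, FGFR4 took 30.0% and 32.1% in the controls and 36.1% and 43.4% in the ETV5_OE libraries, and FGFR3 took 24.8% and 23.1% against 20.1% and 20.6%. FGFR2 took 6.15% and 7.93% against 5.96% and 2.27%, and in none of these 3 did the groups overlap. FGFR1 took 39.0% and 36.9% against 37.9% and 33.7%, and its groups overlapped. Shares of a whole are not independent, since a rise in 1 lowers the rest. In CPM the groups overlapped for FGFR2 and FGFR3, and they did not overlap for 37.6% of all genes tested.

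MET, the HGF receptor, had 87 and 85 counts in the controls and 59 and 114 counts in the ETV5_OE libraries. These were 2.84 and 4.06 CPM against 2.64 and 4.76 CPM. Here the libraries numbered 2 were the higher ones in both groups. The log2 fold change was 0.11 with a wide 95% interval of -0.85 to 1.07 (edgeR adjusted p = 0.981), which takes in changes of either direction. MET lies on chromosome 7 from 116672196 to 116798377. In all, 5 of the 9 receptors (EGFR, FGFR1, FGFR2, FGFR3 and FGFR4) were higher in replicate 1 than in replicate 2 in both groups, as were 25.5% of all genes tested. FGFR3 differed most within the controls, 1.70-fold, and FGFR2 within the ETV5_OE pair, 3.15-fold.

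For the 8 receptors other than IGF1R, folds in the authors' deposited table ran from -1.10 (ERBB3 and FGFR2) to 1.23 (FGFR4), and the smallest of their unadjusted p-values in that table was 0.293, for FGFR4.

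The rest of the IGF axis held the largest single difference among the pathway genes after ETV5 itself. IGFBP3 encodes the main IGF carrier of plasma, which binds IGFs and withholds them from IGF1R. It stood at 2.05 and 7.54 CPM in the controls and at 109 and 108 CPM in the ETV5_OE libraries. Both ETV5_OE libraries were far above both controls, which themselves differed. The log2 fold change was 4.53 (SE 0.75), yet it did not pass with edgeR (adjusted p = 0.351). It passed with DESeq2 (4.50, adjusted p = 8.55e-06), limma-voom (4.90, adjusted p = 0.0164), and with edgeR without Control replicate 1 (3.84, adjusted p = 0.000106) or without Control replicate 2 (5.72, adjusted p = 3.05e-05). Over its 16 alternatives the adjusted p ran from 8.55e-06 to 0.952, the highest without ETV5_OE replicate 1. Of 15 genes listed as IGF ligands, binding proteins and related genes, 5 were tested and none was called, with a median log2 fold change of -0.18. The 5 were IGF1, IGFBP2, IGFBP3 and the stanniocalcins STC1 and STC2, which are neither ligands nor binding proteins of IGF. IGFBP2, another IGF carrier, stood at 63.4 and 49.9 CPM against 41.0 and 57.0 CPM. IGF1 was near 1 CPM, at 0.881 and 1.77 CPM against 1.48 and 0.835 CPM, while IGF2 and INS were not analysed here.

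INSR, the insulin receptor that forms hybrids with IGF1R, stood at 69.0 and 76.3 CPM in the controls and 98.6 and 102 CPM in the ETV5_OE libraries. Both ETV5_OE libraries were higher, but INSR did not pass (log2 fold change 0.46, SE 0.13, edgeR adjusted p = 0.402). In FPKM, the ratio of IGF1R to INSR was 1.46 and 1.15 in the controls and 0.400 and 0.423 in the ETV5_OE libraries. IGF1R was thus the more abundant of the pair in both controls and the less abundant in both ETV5_OE libraries. IGF2R, the scavenger receptor for IGF2, had a mean of 351 CPM in Control and 425 CPM in ETV5_OE (log2 fold change 0.28, adjusted p = 0.807). The adaptors of the receptor were low: IRS1 was at 6.16 and 3.20 CPM against 2.60 and 3.17 CPM, and IRS2 at 8.09 and 8.59 CPM against 7.44 and 6.05 CPM, and neither passed (adjusted p = 0.813 and 0.896). IGF2R, IRS1, IRS2 and IGF1 were chosen after their values were seen.

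Among coreceptors and heparan sulfate enzymes, 1 of 18 tested was called, higher. HS6ST2, which adds a 6-O-sulfate to heparan sulfate, the sugar chain FGFs need to engage their receptors, rose 3.01-fold. It stood at 4.89 and 5.87 CPM in the controls and 17.6 and 14.8 CPM in the ETV5_OE libraries (log2 fold change 1.59, SE 0.24, edgeR adjusted p = 0.0423). Both ETV5_OE libraries lay above both controls. The call was lost in 9 of 16 alternative settings. Its adjusted p was 0.624 without ETV5_OE replicate 1 and 0.331 without ETV5_OE replicate 2, 0.0967 with limma-voom, 0.274 to 0.356 with limma on FPKM, 0.0543 with no filter and 0.0861 without robust estimation. SDC4, the heparan sulfate proteoglycan syndecan-4, stood at 75.9 and 105 CPM against 197 and 186 CPM (log2 fold change 1.09, SE 0.18), which did not pass with edgeR (adjusted p = 0.0603) and passed with DESeq2 (adjusted p = 0.000205). NRP1, a coreceptor for VEGF and semaphorins, stood at 166 and 103 CPM against 52.9 and 50.4 CPM (log2 fold change -1.38, SE 0.23, adjusted p = 0.0906 with edgeR and 4.10e-05 with DESeq2). The list median was -0.07.

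Few ligands of these receptors were in the table. Of 11 ERBB ligands 4 were tested and none was called, with a median log2 fold change of 0.15. HBEGF, a heparin-binding ligand of EGFR and ERBB4, stood at 11.1 and 8.26 CPM in the controls and 15.4 and 15.2 CPM in the ETV5_OE libraries. Its groups did not overlap (log2 fold change 0.66, SE 0.23, edgeR adjusted p = 0.553). EGF itself was at 82.6 and 86.8 CPM against 78.4 and 103 CPM, and TGFA at 14.9 and 18.5 CPM against 20.7 and 17.7 CPM. Of 21 FGF ligands and FGF-binding proteins 2 were tested, FGF21 and FGFBP3, neither called. HGF was not analysed here. Of 6 genes of HGF activation tested none was called. The activating membrane protease ST14 (matriptase; 91.6 and 98.1 CPM against 119 and 120 CPM) and its inhibitor SPINT1 (101 and 96.0 CPM against 124 and 124 CPM) each had a log2 fold change of 0.33. The androgen-induced protease TMPRSS2 had -0.66 (adjusted p = 0.308), at 1040 and 974 CPM against 546 and 728 CPM. None of 7 ligand sheddases was called, and the main ones, ADAM10 and ADAM17, had log2 fold changes of -0.19 and 0.18.

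**Figure D5:**
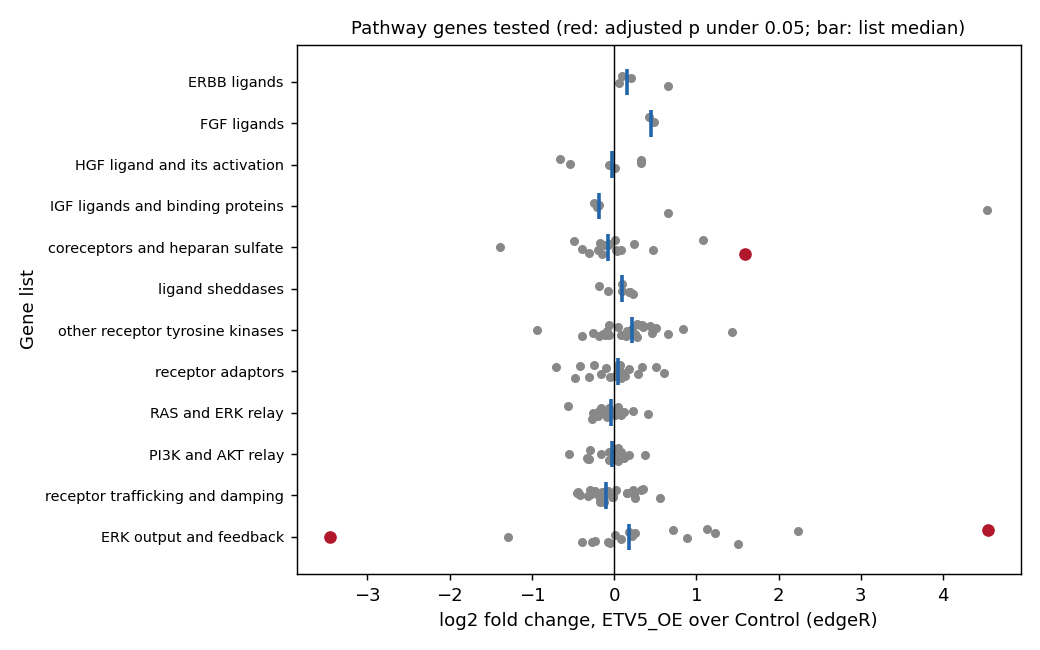
Log2 fold change in ETV5_OE over Control (horizontal axis; edgeR) of each gene tested in the 12 pathway lists (rows), with red points at an adjusted p under 0.05 and a blue bar at each list's median. Medians lie between -0.18 and 0.45, and the red points are HS6ST2, ETV1 and the overexpressed ETV5.

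Receptors outside the 4 families and the relay below them held no called gene. Of 27 other receptor tyrosine kinases and receptor relatives tested none was called, at a median log2 fold change of 0.22. In 13 of them both ETV5_OE libraries were above both controls and in 3 both were below, against 18.8% of all genes in each direction. One of the 13 is PDGFRB, which also marks stroma. EPHA1, an ephrin receptor, had 26.9 and 28.8 CPM against 41.5 and 37.7 CPM, and EPHA3 had 18.4 and 8.40 CPM against 7.04 and 7.05 CPM (edgeR adjusted p = 0.467 and 0.667). Among 22 receptor adaptors (median 0.05), SHC1, which links receptors to GRB2 and RAS, stood at 252 and 200 CPM against 331 and 357 CPM (log2 fold change 0.60, SE 0.16, adjusted p = 0.302). SOS1, which activates RAS, had a log2 fold change of -0.42 and the receptor-binding adaptor GRB10 one of 0.51, neither called. The 20 genes of the RAS and ERK relay had a median of -0.04 and the 16 of the PI3K and AKT relay a median of -0.02, again with none called.

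Proteins that damp receptors were also below the threshold. Of 28 trafficking and damping genes none was called, with a median of -0.10. ERRFI1 (MIG6), an inhibitor that binds the EGFR kinase, stood at 146 and 111 CPM in the controls and 101 and 86.9 CPM in the ETV5_OE libraries. LRIG1, which promotes ERBB receptor degradation, stood at 138 and 114 CPM against 91.4 and 94.8 CPM. In both genes the ETV5_OE libraries were below the controls (log2 fold changes -0.45 and -0.44, edgeR adjusted p = 0.595 and 0.501). NEDD4, of the same list, went the other way, at 40.2 and 41.0 CPM against 52.4 and 51.1 CPM (log2 fold change 0.35, edgeR adjusted p = 0.679). Of the 28 genes, both ETV5_OE libraries were above both controls in 7 and below in 9. Of all genes tested, 18.8% were so in each direction. Of 19 ERK output and feedback genes tested, ETV5 was called higher and ETV1 lower, with a median of 0.18. ETV5 is the overexpressed gene, so its call reflects the construct and is no measure of ERK output. DUSP5, a phosphatase that is induced by ERK and inactivates it, had a log2 fold change of 1.51 that did not pass with edgeR (adjusted p = 0.147), at 49.6 and 48.3 CPM against 103 and 177 CPM. Over the 12 pathway lists, 3 of 174 distinct genes tested were called with edgeR and 8 with DESeq2. Those 8 were ETV1, the overexpressed ETV5, HS6ST2, IGFBP3, DUSP5, NRP1, SDC4 and DUSP6. Of all genes tested, edgeR called 0.401% and DESeq2 1.38%.

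Of all genes tested, the 3 whose pattern over the 4 libraries was most like that of IGF1R were GSTA2, CAP2 and SNORA1. Likeness was the root mean square difference of mean-centred log2 CPM, which was 0.056 for GSTA2, 0.069 for CAP2 and 0.073 for SNORA1, and 42 genes lay within 0.2. CAP2, an actin-binding protein, stood at 50.4 and 45.0 CPM in Control and 17.7 and 21.2 CPM in the ETV5_OE libraries and fell (log2 fold change -1.29, SE 0.18, edgeR adjusted p = 0.0316). GSTA2, a glutathione transferase, and the small nucleolar RNA SNORA1 were low, at most 2.41 and 0.978 CPM, and did not pass (adjusted p = 0.607 and 0.647). With 4 libraries in 2 groups, many genes share a pattern.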

How the data were processed

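The authors deposited 1 table for the series with raw read counts per gene, per the file headers, and whole numbers were found in every library. The deposited FPKM values divide counts by length and library size, per the file headers. The deposited fold is a signed linear fold with lower values negative, and the deposited p-value is unadjusted; which test the authors ran is not known from the sources used. The deposited log2 group means were not used. Trimmomatic, HISAT2, StringTie and hg38 are named in the submitters' processing notes, without versions or roles.

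The test across genes was that of edgeR 4.0.16 under R 4.3.3 (minimum count 10 in the default filter, TMM scaling, robust quasi-likelihood F test, two-sided), with Benjamini-Hochberg adjusted p under 0.05 called. The filter left out 1708 genes. CPM is scaled by TMM. The standard error is the size of the log2 change over the root of F, and 95% intervals from the t distribution with the fit's degrees of freedom; they cover the spread between libraries. Alternatives changed the tool (DESeq2 1.42.0, limma 3.58.1), the scaling, the filter, the pseudocount, the block or the libraries used. On simulated counts with known changes, the test recovered the direction and typical size of the changes, but false calls made up a larger share of its calls than the nominal 0.05, so calls near the threshold, IGF1R and HS6ST2 among them, are not firm. Gene coordinates are RefSeq's on GRCh38.p14, matched by gene ID. Between the libraries of a pair, the chi-square per gene was 44.3 for Control and 33.7 for ETV5_OE, so no pair agreed within sampling noise. The labels call the ETV5_OE libraries 50E-1 and 50E-1R and the Control libraries con-1R and con-2, replicate 1 first. What the R stands for is not stated.

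The receptors and lists were chosen with earlier results of these data known. The text names all receptors, ETV5 and ETV1, up to 3 genes of smallest p and every called gene in each list, and the 3 genes most like the receptor of smallest p. COL1A2, FN1, CD68, STC2, KRT8, KRT18, HOXB13, FOLH1, DUSP6, PDGFRB, MIEN1 and PGAP3 were added after their values were seen. So were COL1A1, COL3A1, COL6A3, VIM, SPARC, ACTA2, VWF and LETM2.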

Additional observations from a re-analysis of the deposited data

How the results depend on the processing

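The count of 65 called genes was 223 with DESeq2, 38 with limma-voom, 13 with limma on log2(FPKM + 1), 11 with limma on log2(FPKM + 0.1), 0 with limma on log2(FPKM + 1) and no filter (1243 at an unadjusted p under 0.05) and 22 without robust estimation. Leaving out 1 library gave between 0 and 238 calls, with 0 without either ETV5_OE replicate (edgeR; 689 and 931 at an unadjusted p under 0.05). The 1 receptor called became 0 with limma-voom, with each of the 3 limma settings on FPKM, without robust estimation and with the replicate block, and ranged from 0 to 1 with a library left out; 1 receptor had an unadjusted p under 0.05 in each of these settings. The 3 pathway calls became 8 with DESeq2, 1 with log2(FPKM + 0.1) and 0 with log2(FPKM + 1) and no filter, and ranged from 0 to 6 with a library left out. The cause was not tested.

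Directions turned for receptors near 0. EGFR was at -0.04 in the 3 FPKM settings. FGFR1 was at -0.01, -0.00 and -0.01 in those with pseudocount 1, pseudocount 0.1 and no filter, and at -0.02 with total counts only. With a library left out the log2 fold changes ranged from -0.10 to 0.36 for EGFR, -0.01 to 0.15 for ERBB2, -0.33 to 0.08 for ERBB3, -0.27 to 0.41 for FGFR1, -1.48 to 0.17 for FGFR2, -0.50 to 0.26 for FGFR3 and -0.38 to 0.47 for MET. Of other named genes, EGF was at -0.02 in the FPKM settings. With a library left out EGF ranged from -0.12 to 0.28, FGF21 from -0.24 to 1.89, IGFBP2 from -0.47 to 0.00, STC1 from -0.08 to 2.43 and ADAM17 from -0.08 to 0.49.

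The replicate numbers did not pair the libraries: deviations of the libraries numbered 1 correlated at 0.0187 between groups. With the number as a block, IGF1R had a log2 fold change of -1.29 (edgeR adjusted p = 0.0752), HS6ST2 had adjusted p = 0.0655, and 55 genes were called. With a library left out, the lone library of its group is assumed to vary like the other group. Low receptors (FGFR2, MET) are limited by counts of at most 114 per library.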
